A study of Homo sapiens with 7 samples.

Results

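The 10 genes followed here in JMJD3c-hESCs are named for their part in the epithelial-mesenchymal transition (EMT). They were taken by gene name from the 22670 genes of the expression tables, and each name had 1 entry. They are CDH1, EPCAM and CTNNB1 of epithelial adhesion, CDH2 and VIM of the mesenchymal state, and the transcription factors SNAI1, SNAI2, ZEB1, ZEB2 and TWIST1. In SEES-3 cells, a human ES cell line, JMJD3c is a shortened form of the H3K27 demethylase JMJD3 (KDM6B) that keeps the catalytic JmjC domain. It carries an HA tag and a nuclear localization signal and is switched on by doxycycline (Dox). JMJD3c-hESCs were sampled without Dox, as Day 0, and daily from Day 1 to Day 4 of Dox. JMJD3c mut-hESCs, whose JMJD3c lacks catalytic activity, were sampled without Dox, with no day given, and at Day 4 of Dox. Both lines are stable clones with a piggyBac transgene and the reverse Tet transactivator, were kept without feeder cells, and received Dox at 1 µg/ml. No line without a JMJD3c transgene was given Dox here, so Dox and the inactive protein cannot be told apart, nor can the mutation and the line that carries it. No library without Dox was labelled with a day after Day 0, so days of Dox and time in culture cannot be told apart either. Each of the 7 conditions had 1 poly(A) RNA-seq library, so differences could not be checked against replicates and no p-values are given.

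EMT is the change by which cells of a sheet, held together by E-cadherin junctions and apical-basal polarity, become loosely attached and migratory. SNAIL, ZEB and TWIST factors bind E-box sequences and repress epithelial genes, CDH1 above all, while N-cadherin and vimentin are gained. Human ES cells grow as epithelial colonies, and an EMT accompanies the passage of epiblast cells through the primitive streak to mesoderm and endoderm.

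Values are FPKM, the fragments of a gene scaled to its exon length in kilobases and to the library's mapped reads, so that levels of different genes can be set side by side per length. Beside them stand the 95% intervals that Cufflinks gave, which describe the estimate within 1 library and not the variation between cultures. The study's cutoffs were used: upregulated genes exceeded both a ratio of 2 and, in the treated library, 4 FPKM, and downregulated genes had a ratio under 0.5 and exceeded 4 FPKM in the untreated library. Log2 fold changes are on the log2(FPKM + 1) scale, which understates the change of low genes. The depth behind the libraries was estimated at 3530000 (Day 0) to 7450000 mapped reads (untreated mutant line). Day 0, the reference of the time course, was the shallowest library. In bulk RNA, fewer cells of a type and less RNA per cell cannot be told apart.

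KDM6B RNA, which here includes the transgene, stood at 3.45 FPKM before Dox and 2.40 FPKM in the untreated mutant line. With Dox it was 158 to 282 FPKM in the 4 JMJD3c libraries and 454 FPKM in the mutant line. All 6 hESC markers (POU5F1, NANOG, SOX2, LIN28A, ZFP42 and DNMT3B) were detected in every library, in sum between 1471 FPKM at Day 4 and 2071 FPKM at Day 0. All 6 were lower than at Day 0 on each day of Dox, and SOX2 (135.6 to 65.9 FPKM) and DNMT3B (404 to 191 FPKM) were called down at Day 4 with intervals apart, though not against the untreated mutant line. All 6 were also lower with than without Dox in the mutant line, where none was called down.

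At Day 4 of Dox, 3 of the 10 genes were upregulated relative to Day 0 (VIM, CDH2 and TWIST1) and 0 were downregulated. All 3 had Cufflinks intervals apart from those of Day 0, although for TWIST1, as for each gene listed at 0, the Day 0 interval ran from 0 to 0 and carries no uncertainty. Of all 10247 genes that exceeded 4 FPKM in one or both samples, 5.87% were called up, 7.56% down, and 2.52% up with intervals apart. The 3 upregulated genes ranked 20 (VIM), 50 (TWIST1) and 292 (CDH2) by log2 fold change among those genes. The adhesion genes CDH1 and EPCAM did not pass the cutoffs on any day. Together the 10 genes had a median log2 fold change of 0.55, beside −0.06 over all genes above the minimum. These medians are over unlike sets, since SNAI2, ZEB1 and ZEB2 did not exceed 4 FPKM in either library. Of the 10 genes, 4 were listed at 0 at Day 0 and so could not be lower at Day 4. With these set at the floor of 3 reads and no pseudocount, the median log2 ratio was 0.91. That median depends on ZEB1, which had 0.319 FPKM at Day 4 with an interval from 0 to 2.58 FPKM. No value over all genes was calculated in this way.

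**Figure D1:**
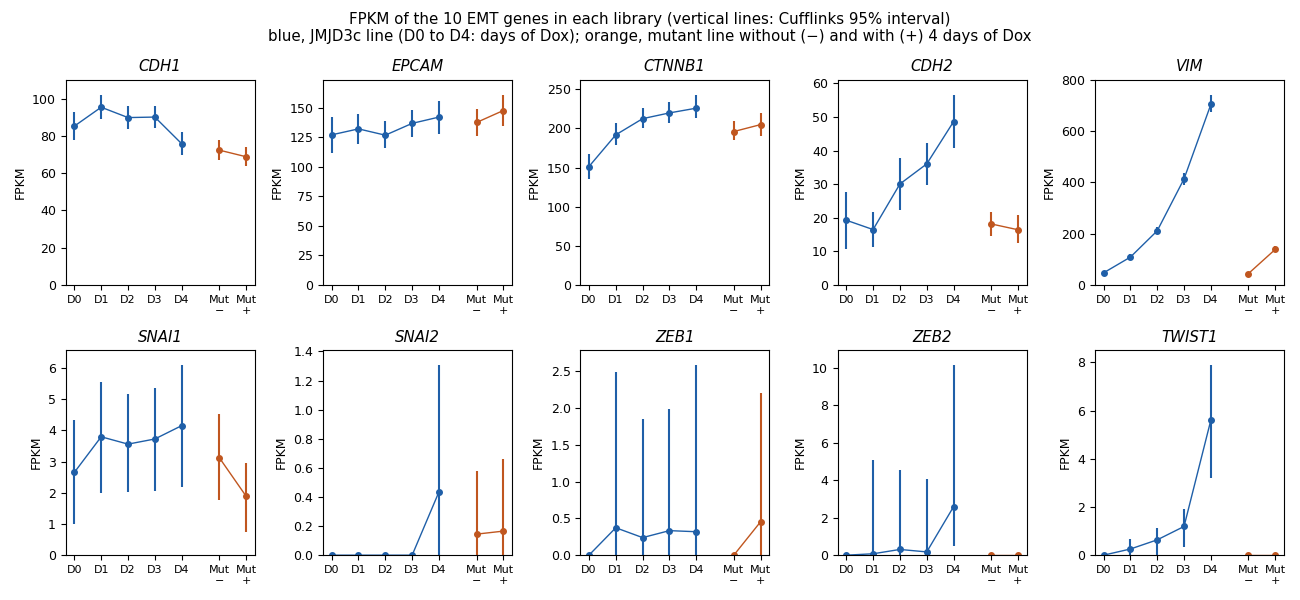
FPKM of each of the 10 EMT genes in the 7 libraries, with 1 panel per gene and its own linear axis. Vertical lines are Cufflinks 95% intervals of 1 library. JMJD3c-hESCs (blue, D0 to D4) climb in VIM from 46.9 to 704 FPKM, while CDH1 stays between 75.8 and 95.4 FPKM. The mutant line (orange) has no TWIST1 or ZEB2 signal in either library.

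CDH1 encodes E-cadherin, the calcium-dependent adhesion molecule of epithelial junctions (ENSG00000039068, hg19 chr16:68771128-68869451, plus strand). From Day 0 to Day 4 its level was 85.2 (interval 77.6 to 93.0), 95.4, 89.8, 90.1 and 75.8 FPKM (69.7 to 82.0), with 72.4 FPKM in the untreated mutant line and 68.8 FPKM in the mutant line with Dox. The lowest values were both libraries of the mutant line, and Day 4 lay between the mutant line and Day 0. The interval of Day 4 overlapped those of Day 0 and of both mutant libraries. It lay below those of Days 1, 2 and 3, whose lower bounds were 89.1, 83.8 and 84.4 FPKM. The ratio of Day 4 to Day 3 was 0.841. The log2 fold change at Day 4 was −0.17 against Day 0 and 0.07 against the untreated mutant line, and at Day 3 it was 0.08 against Day 0. Its sign thus changed with the reference and with the day. The 2 untreated libraries themselves differed by a log2 fold change of −0.23, mutant line against Day 0, with intervals apart.

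EPCAM, the epithelial cell adhesion molecule that also marks undifferentiated hESCs (chr2:47572297-47614173, plus strand), had the smallest span of the 10 genes over the 7 libraries, 0.22 on the log2 scale. Its levels from Day 0 to Day 4 were 127, 132, 127, 137 and 142 FPKM, beside 138 and 148 FPKM in the mutant line without and with Dox. The intervals of every neighbouring pair in this order of levels overlapped. The ratio of Day 4 to Day 0 was 1.12, and that within the mutant line was 1.07.

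CTNNB1, β-catenin (chr3:41236328-41281936, plus strand), links cadherins to the cytoskeleton and is also the transcriptional effector of canonical Wnt signaling. Over the 5 libraries of the time course it stood at 151 (136 to 168), 192, 212, 219.8 and 226 FPKM (213 to 243). Day 0 was the lowest of all 7 libraries, apart from each of the others by its interval. The mutant line measured 196 FPKM without Dox and 205 FPKM with it. The ratio of 1.49 at Day 4 did not pass the cutoff, and against the untreated mutant line it was 1.15. The same untreated libraries differed from each other by a ratio of 1.30. The annotated end of CTNNB1 overlaps ULK4 on the opposite strand. The paper names a directional library kit, but whether reads were counted by strand is not given in the sources used here. The loci of ZEB1 and ZEB2 likewise overlap antisense genes, ZEB1-AS1 and ZEB2-AS1. Those of CDH1, EPCAM, CDH2, SNAI2 and TWIST1 overlap noncoding genes on the opposite strand.

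Of the 5 transcription factors, TWIST1 was upregulated and the other 4 did not pass the cutoffs at Day 4. TWIST1 is a basic helix-loop-helix factor of mesoderm and neural crest (ENSG00000122691, chr7:19155091-19157295, minus strand). It was listed at 0 at Day 0 and in both mutant libraries, and on the 4 days of Dox measured 0.256, 0.636, 1.19 (0.349 to 1.92) and 5.61 FPKM (3.20 to 7.88) in turn. The value was higher at each later day, and the interval at Day 4 lay above that of every other library. These levels rest on few reads, about 1.96, 5.84, 11.7 and 38.7 reads on those days. Against a floor of 3 reads at Day 0 (0.594 FPKM for the longest transcript), the Day 4 value of TWIST1 was 9.43-fold higher. That fold is not a lower bound, since the interval at Day 4 began at 3.20 FPKM. The value at Day 1 lay under the floor of 0.392 FPKM of that library. This floor covers counting error only.

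ZEB2, a zinc finger repressor of CDH1 (chr2:145141648-145278621, minus strand), was also listed at 0 at Day 0 and in both mutant libraries. Under Dox it measured 0.0747, 0.305, 0.174 and 2.58 FPKM in order of days. Its interval at Day 4 ran from 0.491 to 10.1 FPKM and those of Days 1 to 3 reached 5.06, 4.53 and 4.04 FPKM, so that the 4 Dox libraries overlapped. Day 4 stayed under the minimum of 4 FPKM, and ZEB2 was not called. With 50 annotated transcripts of ZEB2, no fold over the floor is given.

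ZEB1, the second ZEB repressor (chr10:31608054-31818741, plus strand), was listed at 0 in both untreated libraries. It lay between 0.239 and 0.373 FPKM from Day 1 to Day 4 and at 0.456 FPKM in the mutant line with Dox, each with an interval that began at 0 and reached at least 1.85 FPKM. The mutant line with Dox was the highest library, and no order among the Dox libraries stood out from these intervals. SNAI2, the SLUG protein (chr8:49830249-49834299, minus strand), was listed at 0 from Day 0 to Day 3 and at 0.435 FPKM at Day 4, which corresponds to about 5.53 reads. Without and with Dox the mutant line had 0.145 and 0.165 FPKM, under 3 reads in both. The floor of 3 reads for SNAI2 at Day 0 was 0.323 FPKM, and the Day 4 value was 1.35 times that floor. Levels under the floor could have gone unseen at Day 0.

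SNAI1, the SNAIL protein that represses CDH1 in the primitive streak (chr20:48599536-48605423, plus strand), was the most expressed of the 5 factors at Day 0. Its 5 values of the time course, Day 0 first, were 2.65 (1.00 to 4.33), 3.79, 3.56, 3.72 and 4.15 FPKM (2.19 to 6.08). The mutant line had 3.13 FPKM without Dox and 1.89 FPKM with it (0.740 to 2.96). The intervals of all 7 libraries overlapped, at about 14.1 to 38.6 reads per library. Day 0, with 14.1 reads, was the thinnest of them. The summed FPKM of the 5 factors was 2.65, 4.50, 4.74, 5.42 and 13.1 from Day 0 to Day 4. The mutant line had 3.27 without and 2.51 with Dox. Between Day 3 and Day 4 the ratio of TWIST1 was 4.71, its largest step from a day to the next, apart from the first, which began at 0.

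VIM encodes vimentin, the intermediate filament of mesenchymal cells, and is expressed by many cultured cells as well (ENSG00000026025, chr10:17270258-17279592, plus strand). The level before Dox was 46.9 FPKM (38.4 to 55.6), followed on the 4 days of Dox by 108 (97.5 to 119), 211, 413 and 704 FPKM (676 to 741). The mutant line had 44.1 FPKM without Dox (38.1 to 50.1) and 138 FPKM with it (127 to 150). The 2 untreated libraries overlapped, and every other neighbouring pair in the order of levels was apart, the mutant line with Dox falling between Days 1 and 2 of JMJD3c. VIM passed the cutoff on each day, with ratios to Day 0 of 2.31, 4.50, 8.82 and 15.0. The ratio of each day to the day before was 2.31, 1.95, 1.96 and 1.70, close to a doubling per day until Day 3. Its locus overlaps VIM-AS1 on the opposite strand, and reads of the pair cannot be told apart where counting ignores strand. In rank among all genes of its library, VIM went from 1882 at Day 0 to 93 at Day 4.

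CDH2 encodes N-cadherin, which is gained in many EMTs and is also the cadherin of neural and mesodermal cells (ENSG00000170558, chr18:25530930-25757410, minus strand). In order of days it measured 19.2 (10.7 to 27.8), 16.5, 30.0 (22.4 to 37.7), 36.0 (29.7 to 42.4) and 48.6 FPKM (40.7 to 56.5). Both mutant libraries, at 18.1 FPKM without and 16.4 FPKM with Dox, lay with Days 0 and 1. The intervals of Day 1 (11.4 to 21.7) and Day 2 were apart, a ratio of 1.82. The later values were higher again, but the intervals of Days 2 and 3 and of Days 3 and 4 overlapped. Day 0 and Day 4 were apart, with a ratio of 2.52. Days 1, 2 and 3 were not called, the ratio at Day 3 being 1.87.

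Promoter sequences are shown for VIM and CDH2, the upregulated genes with the highest levels, since upregulation of both is the result with the most reads behind it. They are the 250 bases before the annotated start, 5′ to 3′ on the gene's strand, from RefSeq on GRCh38.p14, at chr10:17227991-17228240 (plus strand) for VIM and chr18:28177131-28177380 (minus strand) for CDH2, with the GC box in capitals. For CDH2, this is the window of 2 whose start was also found among GENCODE transcripts.
VIM: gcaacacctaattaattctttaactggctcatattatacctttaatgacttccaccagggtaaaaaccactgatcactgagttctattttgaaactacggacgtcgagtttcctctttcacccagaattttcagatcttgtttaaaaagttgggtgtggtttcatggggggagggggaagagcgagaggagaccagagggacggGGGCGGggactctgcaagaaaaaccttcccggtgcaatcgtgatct
CDH2: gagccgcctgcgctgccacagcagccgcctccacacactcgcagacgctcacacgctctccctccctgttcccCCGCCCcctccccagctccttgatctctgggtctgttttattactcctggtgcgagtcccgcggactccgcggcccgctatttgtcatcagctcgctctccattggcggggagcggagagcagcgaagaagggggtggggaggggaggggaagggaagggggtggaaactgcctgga
Motifs were searched as exact letters on both strands and did not overlap. The GC box (GGGCGG, or its reverse complement) occurred once in each window, 46 bases upstream in VIM and 177 bases upstream in CDH2, and in 42.6% of 35116 promoters of this length. The E-box CACCTG, which SNAIL and ZEB factors bind, occurs in 17.5% of promoters, and the T-box half-site TCACACCT in 0.786%. Neither set of letters is in these windows. GC content was 46.0% in VIM and 66.0% in CDH2, beside a median of 58.0%. Promoters of 5 of the 10 genes (CTNNB1, CDH2, VIM, ZEB1 and ZEB2) were matched in the table.

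The cadherin balance shifted with the days of Dox. The ratio of CDH1 to CDH2, both in FPKM, was 4.43 before Dox (2.79 to 8.66 from the bounds of the intervals), then 5.79, 2.99 and 2.50, and 1.56 on the last day (1.23 to 2.01). The mutant line had a ratio of 3.99 without Dox (3.08 to 5.31) and 4.19 with it. The range at Day 4 was apart from those of Day 0 and of both mutant libraries, and CDH1 remained the higher of both cadherins per length in every library. The ratio of VIM to CDH1 was 0.550, 1.14, 2.35, 4.59 and 9.29 from Day 0 to Day 4, and 0.609 without and 2.01 with Dox in the mutant line.

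**Figure D2:**
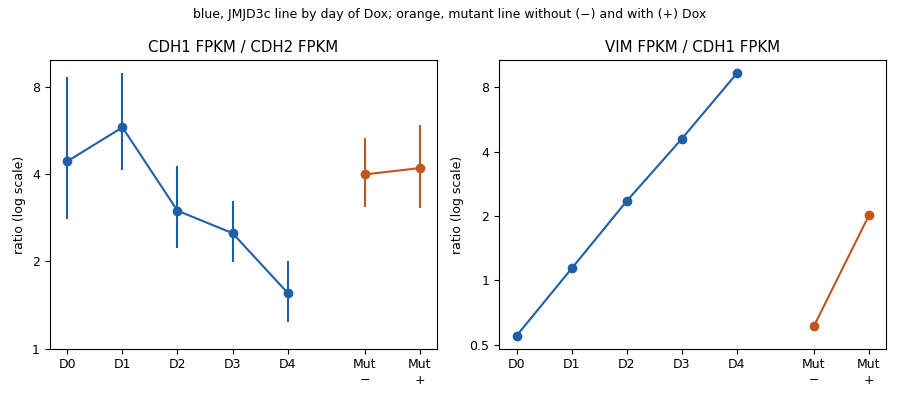
Ratios of FPKM within each library on log axes, CDH1 over CDH2 at left, with the range from the Cufflinks bounds as vertical lines, and VIM over CDH1 at right. In JMJD3c-hESCs (blue) CDH1 over CDH2 ends at 1.56 and VIM over CDH1 at 9.29. The mutant line with Dox (orange) is at 4.19 and 2.01.

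The early days showed fewer calls. VIM was the only one of the 10 genes upregulated on any of Days 1 to 3, and 0 were downregulated on these days. Over all genes, 3.48% were called up and 3.27% down at Day 1, 3.9% up and 4.24% down at Day 2, and 4.73% up and 4.48% down at Day 3. At Day 3, CDH2, TWIST1 and CTNNB1 had intervals apart from Day 0 without passing the cutoffs, CTNNB1 also at Days 1 and 2.

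The mutant line shows these genes without and with Dox and a JMJD3c that lacks catalytic activity, with time in culture not separated. There, 1 of the 10 genes was upregulated (VIM, ratio 3.14, intervals apart) and 0 were downregulated, beside 1.25% of all genes up and 1.53% down. Together the 10 genes had a median of 0.01 there on the log2 scale, beside 0.00 over all genes above the minimum. None of the transcription factors exceeded 4 FPKM in either mutant library. VIM in the mutant line was higher with Dox by 1.63 on the log2 scale and in JMJD3c-hESCs by 3.88, a ratio of ratios of 4.78. The corresponding ratio of ratios was 2.79 for CDH2, whose mutant libraries had a ratio of 0.904. TWIST1 and ZEB2 were listed at 0 with and without Dox there. With 1 library per condition, the difference between the lines was not tested for any gene.

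At Day 4 of Dox in both lines, JMJD3c-hESCs against the mutant line, 4 of the 10 genes were upregulated (VIM, CDH2, TWIST1 and SNAI1) and 0 were downregulated, beside 6.56% and 3.0% of all genes. VIM was at 704 against 138 FPKM, a ratio of 5.09, and CDH2 at 48.6 against 16.4 FPKM, a ratio of 2.96. SNAI1, at 4.15 against 1.89 FPKM, had a ratio of 2.19 with overlapping intervals. CDH1, EPCAM and CTNNB1 had ratios of 1.10, 0.962 and 1.10, with overlapping intervals.

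The same Day 4 library was also set against the untreated mutant line, which had the most reads. VIM, CDH2 and TWIST1 were again the genes called, 3 up and 0 down of 10, beside 7.05% of all genes up and 3.9% down. VIM had a ratio of 16.0 and CDH2 of 2.68 there. These comparisons share the Day 4 library and are not independent of each other. Between the untreated libraries, mutant line against Day 0, 0 of the 10 genes were called in either direction by these cutoffs, beside 2.78% of all genes up and 7.01% down, while CDH1 and CTNNB1 had intervals apart.

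**Figure D3:**
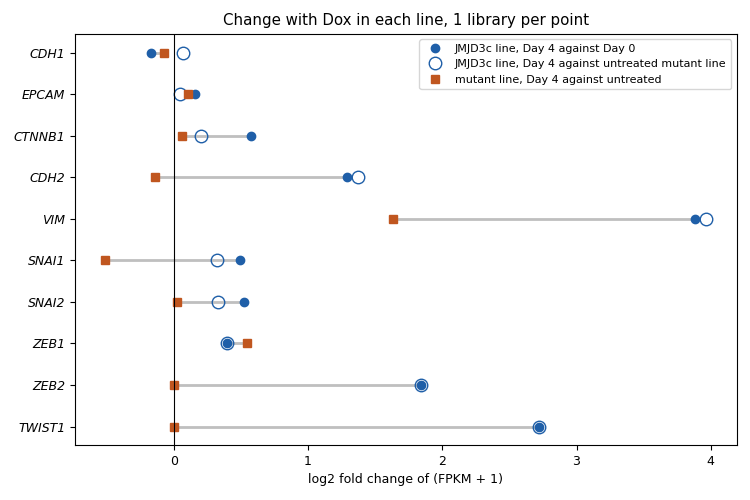
Log2 fold change of FPKM + 1 for each of the 10 genes, with 1 library on each side of every comparison. Filled circles are Day 4 against Day 0, open circles Day 4 of JMJD3c against the untreated mutant line, and squares the mutant line with against without Dox. VIM lies at 3.88, 3.97 and 1.63, and CDH2 at 1.29, 1.37 and −0.14.

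Other genes of the pathway came from 2 lists, none of whose genes is among the 10. They held 37 epithelial genes (junctions, polarity, keratins and their regulators) and 39 mesenchymal genes (matrix, cytoskeleton, integrins and transcription factors). The lists were chosen with earlier results of these data known. Their counts beside the shares of all genes are therefore descriptive only. At Day 4 against Day 0, 10 of the 39 mesenchymal genes rose and 1 fell, 9 and 1 of them with intervals apart, beside 5.87% of all genes up, 7.56% down and 2.52% up with intervals apart. Of the 39, 23 had more than 4 FPKM in either library. A higher value was seen in 29 and a lower one in 10, and the median log2 fold change was 0.37. On the 3 earlier days 3, 4 and 6 were called up, beside 3.48%, 3.9% and 4.73% of all genes. In the mutant line 0 were called up and 1 down, beside 1.25% and 1.53% of all genes, with a median of 0.08.

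Of those mesenchymal genes, ITGA5, the integrin subunit of the fibronectin receptor, rose from 2.25 to 16.2 FPKM, a ratio of 7.20, and measured 3.44 and 3.01 FPKM without and with Dox in the mutant line. The ligand TGFB1 rose from 4.16 to 25.1 FPKM (6.03), with 3.61 and 4.01 FPKM in the mutant line. In both genes Day 4 was above both mutant libraries.

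GSC, a homeobox factor of the organizer, was listed at 0 at Day 0 and at 10.5 FPKM at Day 4. MSX1, a homeobox factor of BMP-responsive mesoderm and neural crest, was listed at 0 at Day 0 and at 4.02 FPKM at Day 4, just over the minimum. In the mutant line GSC had 0.775 and 0.295 FPKM, and MSX1 had 0.157 FPKM without Dox and 0 with it. PRRX2, a homeobox factor of mesenchyme, went the other way and fell from 9.82 to 1.99 FPKM (ratio 0.203). In the mutant line it also passed the cutoff for downregulation, from 7.42 to 3.63 FPKM. Further genes called up, named after their values were seen, were FN1, CDH11, MMP2, TAGLN and ITGAV. FN1, the fibronectin gene, went from 44.4 to 129.6 FPKM, with 37.2 and 32.9 FPKM in the mutant line. Of the 10 upregulated genes, 9 were called against the untreated mutant line as well. ITGAV was not, having 10.8 FPKM there.

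At Day 4 against Day 0, 0 of the 37 epithelial genes passed the cutoff upwards and 5 passed it downwards (CLDN4, TJP3, LLGL2, PKP3 and ELF3), beside 5.87% and 7.56% of all genes, with a median log2 fold change of −0.19. A higher value was seen in 12 and a lower one in 25. Intervals were apart for 1 of the 5, TJP3, a scaffold protein of tight junctions, which fell from 7.71 to 1.39 FPKM (ratio 0.180). TJP3 was also called down in the mutant line, from 5.17 to 2.31 FPKM. Higher values at Day 4 with intervals apart, below the cutoff, were seen in KRT19 (ratio 1.68), DSC2 (1.52), KRT18 (1.27) and DSG2 (1.24). The untreated mutant line was also above Day 0, with intervals apart, in DSC2 (22.4 against 16.7 FPKM) and DSG2 (61.9 against 50.8 FPKM). It was below Day 0 in KRT18 and KRT19. Of the 5 genes called down, LLGL2, PKP3 and ELF3 were called down between the untreated libraries too, mutant line against Day 0. Against the untreated mutant line, 1 epithelial gene was called up (KRT18) and 1 down (TJP3), and the median was −0.03. The summed FPKM of the 37 genes was 2592 at Day 0 and 2453 at Day 4, and 2157 and 2227 without and with Dox in the mutant line. TJP3 apart, the genes of this paragraph were named after their values were seen.

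**Figure D4:**
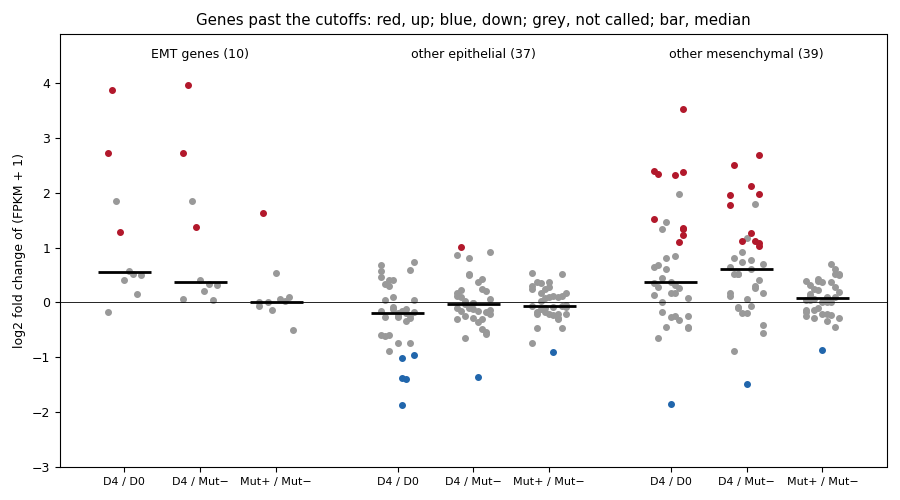
Log2 fold change of FPKM + 1 of each gene among the 10 EMT genes, the 37 other epithelial and the 39 other mesenchymal genes, in Day 4 against Day 0, Day 4 against the untreated mutant line (Mut−) and the mutant line with against without Dox. Red and blue points passed the cutoffs, grey points did not, and bars are medians. In the comparison with Day 0, 10 mesenchymal genes are red and 0 epithelial genes are.

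Among the markers of other cells, those of mesoendoderm rose over the same days as the mesenchymal genes. The 7 mesoendoderm markers (T, MIXL1, EOMES, GSC, CER1, SOX17 and FOXA2) summed to 5.49, 16.5, 91.6, 189 and 294 FPKM over the 5 libraries of the time course, and all 7 were called up at Day 4. In the mutant line, which had VIM upregulated, the sum was 10.998 FPKM without and 7.86 FPKM with Dox, and 0 of the 7 were called up. GSC is in both this list and the mesenchymal list. The part that mesoendoderm cells had in the values of VIM, CDH2 and TWIST1 was not tested.

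The 8 fibroblast markers summed to 119.9 to 166 FPKM in the JMJD3c libraries and to 92.8 and 130.3 FPKM in the mutant line, mostly from THY1, which hESCs also express. DCN, LUM and FAP were listed at 0 in all 7 libraries. COL1A2 was detected in every library, at 12.5 to 28.4 FPKM, and so was COL1A1, at 4.18 to 11.3 FPKM. POSTN was listed at 0 at Day 0 and at 0.572 FPKM at Day 4, with an interval that began at 0. The 6 neural crest and neural markers summed to 12.3 FPKM at Day 0, 24.3 to 27.9 FPKM at Days 1 to 3 and 31.6 FPKM at Day 4. The mutant line had sums of 7.83 and 11.04 FPKM. Most of each sum was NGFR, which had 8.22 FPKM at Day 0 and 24.4 FPKM at Day 4. SOX10 was lower at Day 4 (0.610 FPKM) than at Day 0 (1.67 FPKM), with overlapping intervals. PAX3 and SOX1 had 0.543 and 0.105 FPKM at Day 4. NGFR and PAX6 were called up at Day 4. The mutant line had NGFR called up too (4.92 FPKM without and 9.89 FPKM with Dox, intervals apart), and the interval of PAX6 at Day 4 overlapped that of Day 0. TFAP2B was listed at 0 in every library but Day 4, where it had 0.0735 FPKM. The 5 endothelial and blood markers summed to 5.37 to 13.4 FPKM, mostly from KDR, with PECAM1 and PTPRC at 0 in all 7 libraries. KDR fell from 13.1 FPKM at Day 0 to 3.79 FPKM at Day 4, called down with intervals apart at Days 2, 3 and 4, and CDH5 had 1.27 FPKM at Day 4.

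The genes with the most similar profiles over the 7 libraries were found by the root mean square difference of centred log2(FPKM + 1) values, for the 4 genes whose values spanned more than 1 on that scale. For CDH2 they were TUBB2A (difference 0.10) and CHGA (0.12). TUBB2A, a β-tubulin, measured 196 FPKM at Day 0 and 514 FPKM at Day 4, with 173 and 192 FPKM without and with Dox in the mutant line. For TWIST1 they were SERPINE2 (0.26) and CPE (0.27), and SERPINE2, an inhibitor of serine proteases, went from 29.3 to 162 FPKM. For ZEB2 they were HSPB8 and MICAL3 (0.25 for both). ZEB2 had at most 0.305 FPKM outside Day 4, where it had 2.58 FPKM, so its nearest profiles rest largely on that library. TWIST1 was listed at 0 at Day 0 and in both mutant libraries, which limits its nearest profiles too. For VIM the nearest, DAB1 and EGR1, differed by 0.56 each. VIM also spanned 3.97 on this scale and CDH2 1.51, and the differences were not scaled to span. How closely VIM and CDH2 were followed therefore cannot be compared by these values. EGR1, an immediate-early zinc finger factor, measured 2.11 FPKM at Day 0, 13.6 FPKM at Day 4, and 1.76 and 3.72 FPKM without and with Dox in the mutant line.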

How the data were processed

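The expression of 10 EMT genes was analysed in 7 RNA-seq libraries. The authors sequenced single-end MiSeq reads, mapped them to hg19 with TopHat2 2.0.13 and calculated FPKM with Cufflinks 2.1.1 (versions also in the submitters' processing notes). The deposited FPKM and 95% interval bounds were used unchanged and the libraries were joined by gene identifier and locus. The library kit was directional, while the strand setting of the counting and the annotation are not given in the sources used here. The deposited values hold no counts. Depth (3530000, 5360000, 6420000, 6890000 and 4830000 mapped reads from Day 0 to Day 4, and 7450000 without and 6380000 with Dox in the mutant line) was estimated from whole-read steps of low values, at Day 0 in 243 genes with 1 exon and 1 transcript of over 600 bases, with 200 bases subtracted. Transcript lengths, strands and overlaps came from GENCODE release 44 on GRCh37. Members and lists were chosen with earlier results of these data known. From each list, up to 5 genes per direction with the largest ratio and separate intervals were named, and for each spanning gene the 2 with the nearest profile, averaging over 4 FPKM and at least 300 bases long. An item that this rule names is not reported here. Calculations used Python 3.11.15, numpy 2.4.6 and pandas 2.3.3 and were tested on simulated data. Alternatives changed scaling, FPKM minimum, pseudocount, intervals, reference and treated day.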

Additional observations from a re-analysis of the deposited data

Results flagged for a closer look

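For 2 genes the difference with Dox had opposite signs in the lines, with 1 library per condition on each side, so that it was not tested. CDH2 was called up in JMJD3c-hESCs, with a log2 fold change of 1.29, and was not called in the mutant line, where it had −0.14 with overlapping intervals, a difference of 1.43. SNAI1 was called in neither line, with a log2 fold change of 0.50 in JMJD3c-hESCs and −0.51 in the mutant line, a difference of 1.01, and its Cufflinks intervals overlapped within both lines at no more than 38.6 estimated reads per library.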

How the results depend on the processing

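No called value changed sign under the alternatives, while CDH1, which was not called, went from −0.17 to 0.08 with Day 3 and to 0.07 with the untreated mutant line as reference. The alternatives for Days 1 to 3, for Day 4 between the lines, for the untreated libraries and for the lists were chosen after seeing the data. Of 120 settings of the log2 fold changes of single genes, 109 stayed within the range given by the Cufflinks bounds and 11 left it. Without an FPKM minimum, 6 of the 10 genes were called at Day 4 (adding SNAI2, ZEB1 and ZEB2), 4 at each of Days 1, 2 and 3, 2 in the mutant line (with ZEB1) and 1 between the untreated libraries (SNAI2), all of the added genes below 4 FPKM. With Day 3 as the treated sample, 1 of the 10 genes and 6 mesenchymal genes were called up. At Day 3, 2 genes were called with upper-quartile scaling (CDH2 and VIM) or with a minimum of 1 FPKM (VIM and TWIST1). Of the epithelial genes, 1 was called up with a minimum of 1 FPKM or with the untreated mutant line as reference, and 3 were called down with upper-quartile scaling, 1 with intervals apart and 1 with the untreated mutant line as reference. Upper-quartile scaling shifted all genes by 0.13 at Day 4 against Day 0 on the log2 scale. With a pseudocount of 0.1 the log2 fold change of TWIST1 at Day 4 was 5.84, with 4 it was 1.26. Leaving out a replicate was not possible with 1 library per condition. No paired analysis was possible because no condition had more than 1 library. The cause of these changes was not tested. Depth limits SNAI1, SNAI2, ZEB1, ZEB2 and TWIST1, each with at most 38.7 estimated reads per library except ZEB2 at Day 4, with 117.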
